A study of Homo sapiens with 6 samples.

Results

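The genes described are 37 heat shock proteins, chaperonin subunits and their partners, of 60589 genes in the table. They were taken by symbol from a list of family names, chosen with earlier results of these data known. They comprise 30 cytosolic chaperones and co-chaperones, 5 mitochondrial chaperones and 2 of the heat shock transcription factors, HSF1 and HSF2. They were measured by RNA sequencing at day 3 in SNU449, a human liver cancer line, after control siRNA (siControl, 3 libraries) or after siRNA against MAD2L1, which encodes a spindle checkpoint protein (siMAD2L1, 3 libraries). All libraries share the line, the medium and the day, and differ in the siRNA. The treatment field names MAD2L1 for siMAD2L1 library 1, but MAD2L2 and MAD2L3 for libraries 2 and 3, while the titles name MAD2L1 for each. The labels do not say whether the numbered libraries come from separate cultures, so the p-values below rest on the spread among these libraries, and that spread may be technical. The values are TPM, a library's transcript abundance per length scaled to a fixed total, and the number of reads behind them is unknown.

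Chaperones bind unfolded or partly folded proteins and keep them from aggregating. HSP70 proteins take up exposed stretches with the help of J-domain proteins and release them with exchange factors, HSP90 completes the folding of kinases and receptors, and the ring-shaped chaperonin TRiC, built from the CCT subunits, folds actin, tubulin and proteins such as CDC20 in its chamber. Mitochondria hold their own set. Under proteotoxic stress the factor HSF1 binds heat shock elements, repeated GAA units in alternating orientation, and raises transcription of the inducible members.

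MAD2L1 itself measured 14.5, 13.7 and 13.9 TPM in siControl and 4.47, 0.795 and 2.40 TPM in siMAD2L1 libraries 1, 2 and 3. It fell in each siMAD2L1 library, least in library 1 (log2 fold change -2.22, SE 0.357, limma adjusted p = 0.0105). Its call ended without any 1 siControl library (adjusted p = 0.0547 to 0.0597), while its log2 fold change stayed at -2.24 to -2.20. MAD2L2 measured 150, 146 and 138 TPM in siControl and 123, 154 and 138 TPM in siMAD2L1 libraries 1, 2 and 3 (log2 fold change -0.07, limma adjusted p = 0.698). Its lowest value was thus in library 1, and not in libraries 2 and 3. Transcripts encoded in the mitochondrial genome took 15.2% to 15.3% of the TPM in siControl and 9.21% to 10.9% in siMAD2L1, and their part in the chaperone values, which share the fixed total, was not tested on its own. One rescaling left them out together with the 20 highest genes. Of 8 hepatocyte markers APOB and TTR were listed at 0 in every library and ALB had means of 0.365 and 0.311 TPM, while TF and FGB were higher in siControl (8.83 and 7.42 TPM) than in siMAD2L1 (3.98 and 2.77 TPM). By contrast the mesenchymal marker VIM measured 9494 and 10847 TPM (limma adjusted p = 0.114). Of the other mesenchymal markers COL1A2 fell from 389 to 232 TPM (adjusted p = 0.00187), and COL1A1 measured 133 and 97.6 TPM with no overlap of the groups (adjusted p = 0.0566). FN1 (55.4 and 56.6 TPM) and CDH2 (34.3 and 31.8 TPM) did not pass (adjusted p = 0.940 and 0.599). THY1 was near 0 (0.207 and 0.126 TPM). The epithelial keratin genes KRT8, from 222 to 163 TPM, and KRT18, from 194 to 133 TPM, fell (adjusted p = 0.0101 and 0.00661). The other epithelial markers were low. The keratin gene KRT19 and CDH1 did not pass (log2 fold change 0.0249 and -0.377, adjusted p = 0.961 and 0.406). EPCAM was near 0 (0.323 and 0.056 TPM) and was not tested. Leukocyte and endothelial markers were near 0, with PTPRC means of 0.0250 and 0.0300 TPM, apart from CD14 (7.50 and 3.43 TPM) and LYZ (1.20 and 0.879 TPM).

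Most chaperone mRNAs did not pass the test. HSPA1A, an inducible HSP70, rose. HSP90AB1, the constitutive HSP90, and CCT6A, the zeta subunit of TRiC, fell. CCT6A changed most of the 3, to 53.6% of its siControl mean, while HSPA1A reached 127% and HSP90AB1 80.2%. Together the 37 genes took 0.623% to 0.650% of the TPM in siControl and 0.522% to 0.595% in siMAD2L1, so that the groups did not overlap. This sum is weighted to the most abundant members and was not tested. Taken singly, 21.5% of all genes tested separated in the same way, with siMAD2L1 lower.

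Of the 37 members 36 passed the filter of a mean of at least 1 TPM and were tested, and HSPB8 (0.698 and 0.468 TPM) was not. At a limma adjusted p under 0.05, 1 member was higher and 2 were lower in siMAD2L1. Over all 14790 genes tested 9.78% were called, 3.55% higher and 6.23% lower, so the members' share was not above the background. Of all called genes 63.7% were lower, a split that depends on the scaling: it was 52.5% with upper-quartile scaling, 50.5% with quantile normalization, 73.3% when rescaled without mitochondrially encoded and the 20 highest genes, and 43.9% after removal of a trend with transcript length. The last of these was added once the data were known. An unadjusted p under 0.05 was found at 10 of 36 members and at 26.3% of all genes tested. The groups did not overlap at 3 members that were higher in siMAD2L1 and 8 that were lower, against 11.3% and 21.5% of all genes tested. The median log2 fold change, a difference of group means of log2(TPM + 1), was -0.12 over the members and -0.08 over all genes tested. It was -0.10 over 29 cytosolic members and -0.24 over the 5 mitochondrial ones, a difference that was not tested.

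**Figure D1:**
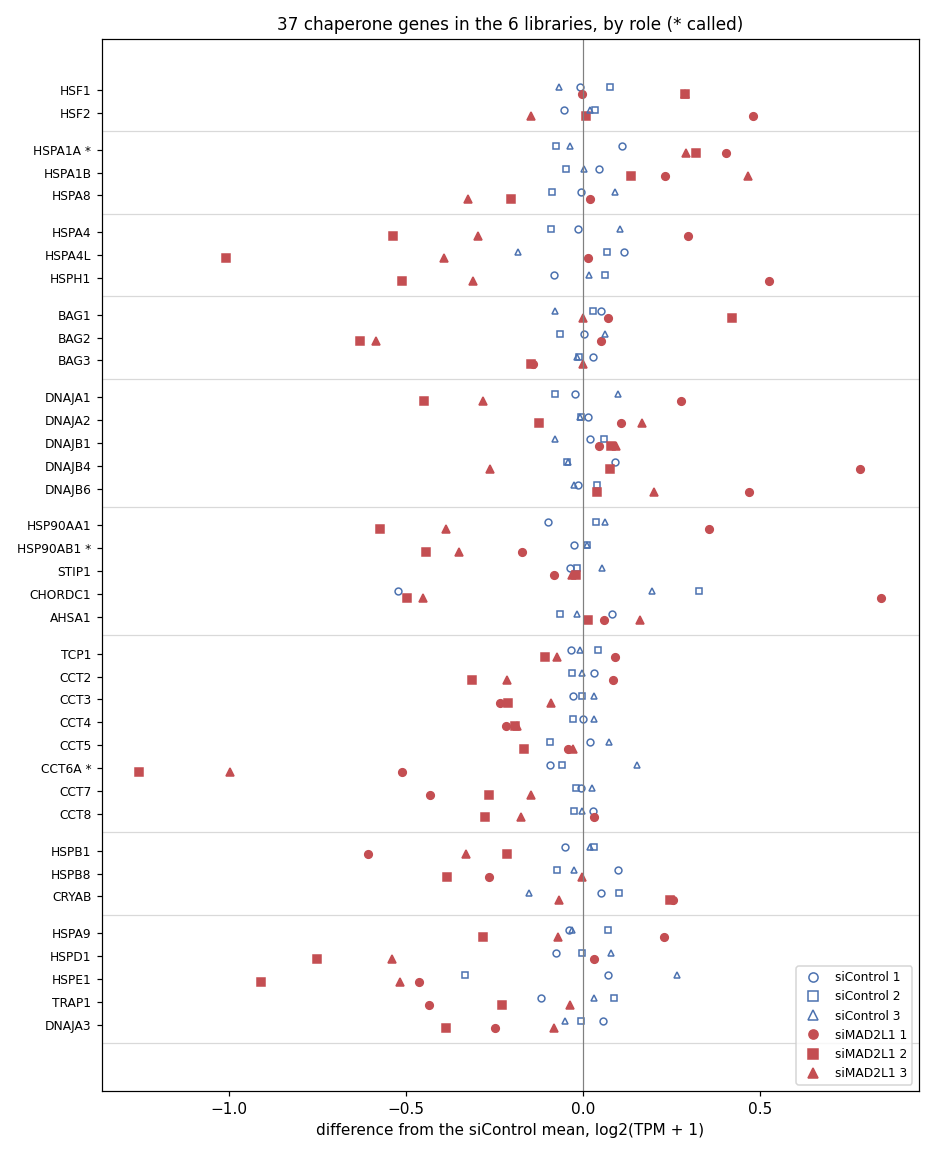
Each of the 37 genes in the 6 libraries, as the difference from the siControl mean on the log2(TPM + 1) scale (x axis), grouped by role (rows), with open blue symbols for siControl and filled red symbols for siMAD2L1. CCT6A lies lowest, and siMAD2L1 library 1 (red circles) often lies on the other side of 0 from libraries 2 and 3.

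Heat shock elements were looked for in RefSeq promoter windows of 300 bases (GRCh38.p14, 250 bases before to 50 after a start), which exist here for 34 of the 37 members. The element was searched as GAANNTTC or TTCNNGAA (2 units, each the same on both strands) and as GAANNTTCNNGAA or its other-strand form TTCNNGAANNTTC (3 units, a longer match that contains the shorter ones). The 2-unit form was found for 20 of 34 members, against 16.2% of all genes with a window, and the 3-unit form for 7 of 34, against 0.608%. By window the shares over all 35116 windows were 13.5% and 0.490%. These matches are letters in a window, and binding was not measured. The 7 members with 3 or more units follow, with the duplicated pair HSPA1A and HSPA1B, which hold the 2-unit form at nearly the same place. The stretches run 5′ to 3′ on the gene's strand, and capitals mark the match.

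Heat shock element stretches from RefSeq, GRCh38.p14:
HSPA1A (chr6:31815427-31815454, plus strand): gaaaaccctgGAATATTCccgacctggc
HSPA1B (chr6:31827609-31827664, plus strand): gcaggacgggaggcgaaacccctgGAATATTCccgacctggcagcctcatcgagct
HSPA8 (chr11:123062171-123062199, minus strand): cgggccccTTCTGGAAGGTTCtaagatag
DNAJA1 (chr9:33025268-33025296, plus strand): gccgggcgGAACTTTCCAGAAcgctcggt
DNAJB6 (chr7:157336849-157336909, plus strand): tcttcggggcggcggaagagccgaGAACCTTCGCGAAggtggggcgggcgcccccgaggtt
HSP90AA1 (chr14:102087112-102087140, minus strand): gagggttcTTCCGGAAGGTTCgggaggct
HSP90AB1 (chr6:44247754-44247814, plus strand): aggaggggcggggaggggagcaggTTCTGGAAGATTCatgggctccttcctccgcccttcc
CHORDC1 (chr11:90223084-90223112, minus strand): ccgGAAAATTCGCGAAGGTTCCTGAAacg
HSPD1 (chr2:197500063-197500090, minus strand): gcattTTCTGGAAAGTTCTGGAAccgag

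CHORDC1 holds 5 alternating units in a row and HSPD1 4. Of the 7 members with a 3-unit match HSP90AB1 was called lower and none higher, which with 3.55% of all genes called higher says nothing about these members. All 7 printed matches lie inside the gene's GENCODE span, downstream of its outermost start. Their log2 fold changes ran from -0.42 for HSPD1 to 0.24 for DNAJB6.

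HSF1, the main regulator of the heat shock response, measured 118, 126 and 113 TPM in siControl and 119, 146 and 145 TPM in siMAD2L1. Libraries 2 and 3 lay above all controls and library 1 among them (log2 fold change 0.19, SE 0.0992, limma adjusted p = 0.268). HSF2, a related factor, measured 6.05, 6.50 and 6.42 TPM in siControl and 9.21, 6.37 and 5.62 TPM in siMAD2L1 (0.11, adjusted p = 0.743). Neither passed, and neither had an unadjusted p under 0.05.

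HSPA1A (ENSG00000204389, chr6:31815464-31817946, GRCh38) and HSPA1B (ENSG00000204388, chr6:31827735-31830255) encode the stress-inducible cytosolic HSP70 from neighbouring copies on the plus strand. HSPA1A measured 109, 96.0 and 98.6 TPM in siControl and 134, 126 and 124 TPM in siMAD2L1. Every siMAD2L1 library lay above every control (mean ± SD of 3 libraries 101 ± 7.09 against 128 ± 5.35 TPM, log2 fold change 0.34, SE 0.0810, limma adjusted p = 0.0391). HSPA1B measured 73.0, 68.3 and 70.7 TPM in siControl and 83.2, 77.7 and 97.9 TPM in siMAD2L1. Its groups also did not overlap, but it did not pass (0.28, SE 0.101, adjusted p = 0.126).

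Reads of the 2 copies are hard to assign, since 71.3% of the 50-base windows of the HSPA1A transcripts occur in HSPA1B. Summed to 1 feature, also a fit added once the data were known, they measured 182, 164 and 169 TPM in siControl and 217, 204 and 222 TPM in siMAD2L1 (mean ± SD of 3 libraries 172 ± 9.32 against 214 ± 9.27 TPM, log2 fold change 0.32, adjusted p = 0.0367). The call of HSPA1A ended when TPM were rescaled without mitochondrially encoded and the 20 highest genes (adjusted p = 0.0562), with the replicate number as a block (0.0608), without a filter on low values (0.0740), by limma without a trend (0.106) and without any library other than siMAD2L1 library 1 (0.0813 to 0.137).

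HSPA8, the constitutive HSP70, was the more abundant form, with 725, 685 and 775 TPM in siControl and 737, 631 and 581 TPM in siMAD2L1 (log2 fold change -0.17, adjusted p = 0.320). Library 1 lay among the controls and libraries 2 and 3 below them. The log2 ratio of HSPA1A to HSPA8 was -2.85 ± 0.123 in siControl and -2.34 ± 0.115 in siMAD2L1 (SD, n = 3 each), and its groups did not overlap (exact two-sided permutation p = 0.1, the smallest this design allows, and 0.25 after adjustment over 5 ratios). HSPA6, an HSP70 gene that is nearly silent without stress and is not among the 37, measured 0.496, 0.917 and 0.480 TPM in siControl and 3.25, 2.92 and 3.14 TPM in siMAD2L1. It rose in each library (log2 fold change 1.34, SE 0.212, adjusted p = 0.00994, and 0.0531 without siControl library 1), from a low level and with a near-identical copy, HSPA7, that can take its reads.

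**Figure D2:**
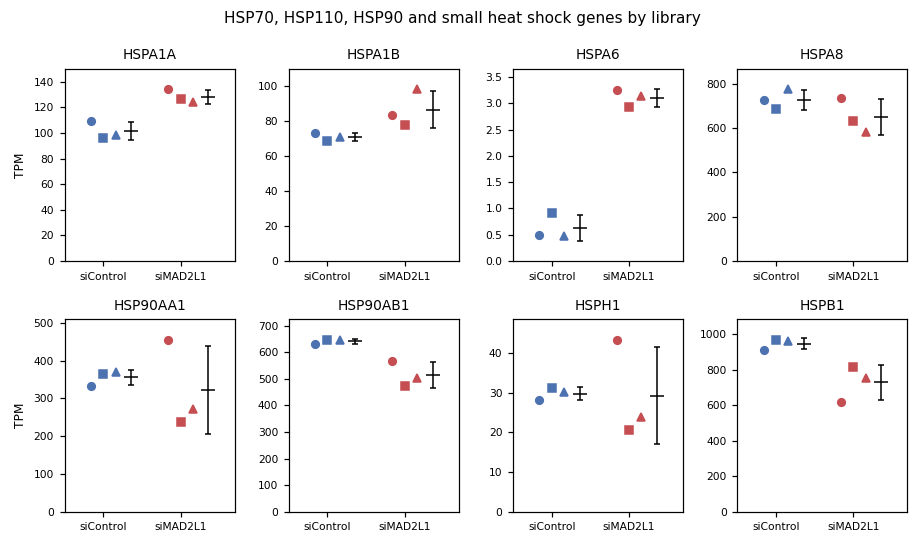
TPM (y axes from 0) of 8 heat shock genes in siControl (blue) and siMAD2L1 (red), with circles, squares and triangles for libraries 1, 2 and 3 and black bars for the mean ± SD (n = 3). HSPA1A, HSPA1B and HSPA6 lie higher in each siMAD2L1 library, HSP90AB1 and HSPB1 lower, and HSP90AA1 and HSPH1 are high in siMAD2L1 library 1 alone.

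The HSP110 proteins HSPA4, HSPA4L and HSPH1 exchange the nucleotide of HSP70. HSPH1 measured 28.1, 31.2 and 30.2 TPM in siControl and 43.3, 20.6 and 23.8 TPM in siMAD2L1. HSPA4 measured 62.5, 59.4 and 68.0 TPM in siControl and 77.9, 43.3 and 51.3 TPM in siMAD2L1. In both genes library 1 lay above all controls and libraries 2 and 3 below all of them, so the log2 fold changes of -0.10 and -0.18 average opposite values (adjusted p = 0.838 and 0.609). HSPA4L was low, at 4.69, 4.51 and 3.63 TPM in siControl and 4.31, 1.61 and 3.01 TPM in siMAD2L1 (-0.46, adjusted p = 0.325). None of the 3 passed, and none had an unadjusted p under 0.05.

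The BAG proteins are a further group of HSP70 exchange factors, of which BAG3 links HSP70 to autophagy. BAG3 measured 88.1 to 91.0 TPM in siControl and 80.5 to 89.2 TPM in siMAD2L1 (log2 fold change -0.10, adjusted p = 0.479). BAG1 measured 35.3 to 38.7 TPM and 37.3 to 50.4 TPM (0.16, adjusted p = 0.452). BAG2, which restrains the ubiquitin ligase that works with HSP70, measured 4.72, 4.47 and 4.97 TPM in siControl and 4.92, 2.69 and 2.81 TPM in siMAD2L1 (-0.39, adjusted p = 0.305). As in HSPH1, libraries 2 and 3 lay below the controls and library 1 did not.

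Among the J-domain proteins, which bring substrates to HSP70, DNAJB1 is a strong heat shock target. DNAJB1 measured 104, 107 and 97.2 TPM in siControl and 106, 109 and 110 TPM in siMAD2L1 (log2 fold change 0.07, SE 0.0735, adjusted p = 0.576). Its groups overlapped. DNAJA1 measured 72.5, 69.6 and 79.0 TPM in siControl and 89.4, 53.7 and 60.4 TPM in siMAD2L1 (-0.15, adjusted p = 0.633). It followed the HSPH1 order of libraries, with library 1 above and libraries 2 and 3 below the controls. DNAJB6, a suppressor of aggregation, measured 94.6, 98.3 and 94.0 TPM in siControl and 133, 98.3 and 110 TPM in siMAD2L1. Its lowest siMAD2L1 value lay just above the highest control (0.24, adjusted p = 0.226). DNAJA2 had means of 35.9 and 37.4 TPM and DNAJB4 of 4.23 and 5.28 TPM, and neither passed (adjusted p = 0.797 and 0.677).

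HSP90AB1 (ENSG00000096384, chr6:44246166-44253888, plus strand), the constitutive cytosolic HSP90, measured 630, 646 and 646 TPM in siControl and 568, 471 and 502 TPM in siMAD2L1. It fell in each library (mean ± SD of 3 libraries 641 ± 9.34 against 514 ± 49.7 TPM, log2 fold change -0.32, SE 0.0808, limma adjusted p = 0.0457). That call lay close to the threshold and ended with upper-quartile scaling (0.0643), with the replicate number as a block (0.0830), without a filter on low values (0.120), by limma without a trend (0.134) and without any library other than siMAD2L1 library 1 (0.109 to 0.147). After removal of a trend with transcript length, a fit added once the data were known, it was -0.23 (adjusted p = 0.111).

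HSP90AA1, the stress-inducible HSP90, measured 331, 364 and 370 TPM in siControl and 454, 238 and 271 TPM in siMAD2L1. Library 1 was the highest of the 6 and libraries 2 and 3 the lowest (log2 fold change -0.20, SE 0.213, adjusted p = 0.596). Without siMAD2L1 library 1 the fold change was -0.48 (adjusted p = 0.0132), and with that library alone against the controls it was 0.36 (adjusted p = 0.0719). The log2 ratio of HSP90AA1 to HSP90AB1 was -0.93, -0.83 and -0.80 in siControl and -0.32, -0.98 and -0.89 in siMAD2L1, which again set library 1 apart (exact permutation p = 0.9 between the groups). Of the transcript windows of HSP90AB1 16.6% and of HSP90AA1 11.3% occur in other genes, mostly pseudogenes. The size of any effect on the TPM of HSP90AB1 and HSP90AA1 is unknown.

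The co-chaperones of HSP90 among the members, STIP1, AHSA1 and CHORDC1, did not pass. STIP1, which bridges HSP70 and HSP90, measured 209 to 222 TPM in siControl and 202 to 211 TPM in siMAD2L1 (log2 fold change -0.04, adjusted p = 0.711). AHSA1, an activator of the HSP90 ATPase, measured 148 to 164 TPM and 157 to 174 TPM (0.08, adjusted p = 0.564). CHORDC1, whose promoter holds the longest element above, measured 6.03, 11.7 and 10.6 TPM in siControl and 17.1, 6.17 and 6.39 TPM in siMAD2L1. Its controls themselves spread widely, and the sign of its change depends on the libraries used (-0.04, SE 0.383, adjusted p = 0.966).

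**Figure D3:**
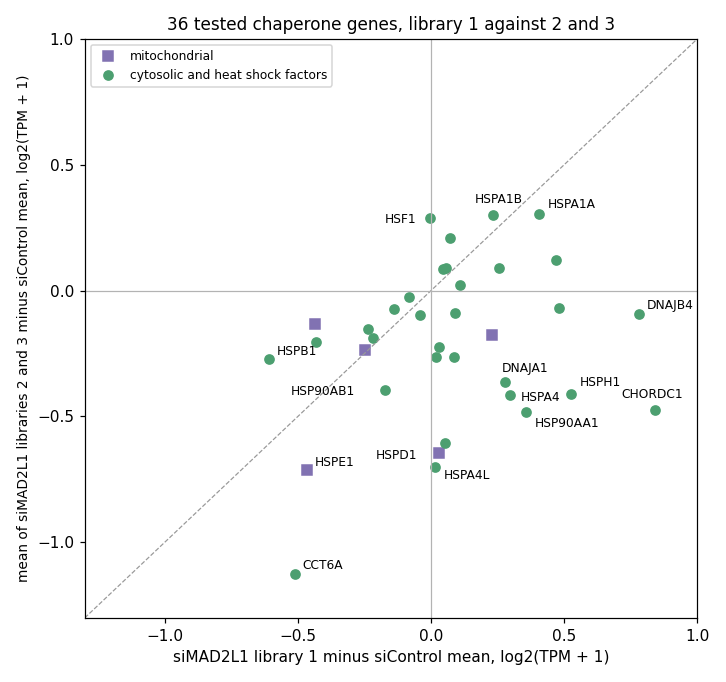
Difference from the siControl mean on the log2(TPM + 1) scale in siMAD2L1 library 1 (x axis) and as the mean of libraries 2 and 3 (y axis) for the 36 tested members, with squares for mitochondrial chaperones and a dashed line of equal values. HSP90AA1, HSPH1, HSPA4, DNAJA1 and CHORDC1 lie to the right of 0 and below it, whereas CCT6A and HSPE1 are low on both axes.

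The libraries of siMAD2L1 split in the same way across several roles. Library 1 lay above every control while libraries 2 and 3 lay below every control at 8 of 36 members, namely HSPA4, HSPH1, DNAJA1, HSP90AA1, TCP1, CCT2, CCT8 and HSPA9. Over all genes tested this order was found at 8.01%. The opposite order was found at 0 of 36 members and at 1.25% of all genes. The median difference from siControl over the members was 0.05 in library 1, -0.21 in library 2 and -0.15 in library 3, beside 0.02, -0.15 and -0.12 over all genes tested. Library 1 is also the one with the most MAD2L1 mRNA left and the only one whose treatment field names MAD2L1, and the part of these in the split was not tested.

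Leaving out library 1 changed the picture of calls. Without it 13 of 36 members passed, against 16.4% of all genes tested, 2 of them higher and 11 lower. Those 13 include HSPA1A and HSF1 among the higher and HSP90AB1, CCT6A, HSP90AA1, HSPD1, HSPH1, HSPA4, DNAJA1, CCT2, BAG2, HSPB1 and HSPE1 among the lower. With library 1 alone against the controls, assumed to vary as they do, 3 members passed, against 8.30% of all genes, of which DNAJB6 was higher and HSPB1 and CCT7 were lower, and none of these was called with all 6 libraries.

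TRiC is a double ring in which each of 8 subunits occupies a fixed place, so all 8 are needed in equal number. CCT6A (ENSG00000146731, chr7:56051630-56063989, plus strand) measured 142, 145 and 168 TPM in siControl and 106, 62.9 and 75.3 TPM in siMAD2L1. Every siMAD2L1 library lay below every control, library 1 least (mean ± SD of 3 libraries 152 ± 14.4 against 81.4 ± 22.1 TPM, log2 fold change -0.92, SE 0.177, limma adjusted p = 0.0189). The call held under upper-quartile and quantile scaling, when rescaled without mitochondrially encoded and the 20 highest genes, and with the replicate block, and ended without any 1 siControl library (0.0713 to 0.0908), without siMAD2L1 library 3 (0.0734), without a filter on low values (0.0737) and by limma without a trend (0.0509). The gene hosts the small nucleolar RNAs SNORA15 and SNORA22B, and 5.35% of its transcript windows occur in other genes, of which the pseudogene CCT6P3 measured 1.40 to 2.90 TPM.

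The other 7 subunits did not pass, and their fold changes were smaller. CCT4 measured 110, 108 and 113 TPM in siControl and 94.8, 96.6 and 96.9 TPM in siMAD2L1, a narrow separation (log2 fold change -0.20, SE 0.0682, adjusted p = 0.110). CCT7 measured 235, 233 and 240 TPM in siControl and 175, 196 and 213 TPM in siMAD2L1 (-0.28, adjusted p = 0.0785). CCT3, the most abundant subunit mRNA, measured 335, 341 and 349 TPM in siControl and 290, 295 and 321 TPM in siMAD2L1 (-0.18, adjusted p = 0.142). In these 3 subunits, as in CCT6A, the groups did not overlap. The same separation, with siMAD2L1 lower, was found at 21.5% of all genes tested.

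For the remaining subunits the groups overlapped. TCP1, the alpha subunit, had means of 204 and 200 TPM (log2 fold change -0.03), CCT2 of 134 and 121 TPM (-0.15), CCT5 of 185 and 175 TPM (-0.08) and CCT8 of 136 and 124 TPM (-0.14), with adjusted p of 0.381 to 0.844. Of the 8 subunits 4 had an unadjusted p under 0.05, against 26.3% of all genes tested, and the median log2 fold change was -0.16.

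CCT6A made up a smaller share of the subunit mRNAs in siMAD2L1. It took 9.55%, 9.84% and 10.9% of the summed TPM of the 8 subunits in siControl and 7.88%, 5.13% and 5.72% in siMAD2L1. In siMAD2L1 libraries 2 and 3 it was the least abundant of the 8 subunit mRNAs, a place held by CCT4 in the controls and in library 1. The summed TPM of the other 7 was 1343, 1330 and 1369 in siControl against 1237, 1162 and 1242 in siMAD2L1. The log2 ratio of CCT6A to TCP1 was -0.43 ± 0.141 and -1.33 ± 0.279 (SD, n = 3 each, exact permutation p = 0.1, and 0.25 after adjustment over 5 ratios). This ratio does not depend on the scaling of a library.

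**Figure D4:**
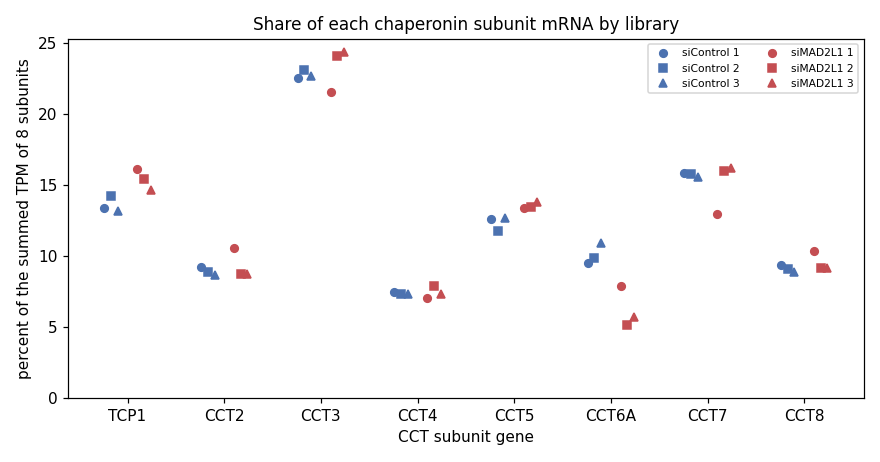
Share of each of the 8 CCT subunit genes in their summed TPM (y axis, percent, from 0) in siControl (blue) and siMAD2L1 (red), with circles, squares and triangles for libraries 1, 2 and 3. CCT6A lies at 9.55% to 10.9% in siControl and at 5.13% to 7.88% in siMAD2L1.

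Small heat shock proteins hold unfolded proteins without ATP. By group mean HSPB1 (HSP27) was the most abundant of the 37 mRNAs, although HSPA8 lay above it in siMAD2L1 library 1 (737 TPM). HSPB1 measured 912, 966 and 958 TPM in siControl and 620, 814 and 752 TPM in siMAD2L1. The groups did not overlap, and here library 1 was the lowest (mean ± SD of 3 libraries 945 ± 29.4 against 729 ± 98.9 TPM, log2 fold change -0.38, SE 0.102). It missed the threshold narrowly (limma adjusted p = 0.0536) and passed with quantile normalization (-0.51, adjusted p = 0.0198), when rescaled without mitochondrially encoded and the 20 highest genes (-0.43, adjusted p = 0.0368), with a filter at 5 TPM (0.0382) and without siMAD2L1 library 1 (-0.27, 0.0310) or 2 (-0.47, 0.0435), and with library weights (-0.31, 0.00522). CRYAB (alpha B-crystallin) was low, at 2.64 to 3.34 TPM in siControl and 2.86 to 3.83 TPM in siMAD2L1 (0.14, adjusted p = 0.666). HSPB8, a partner of BAG3, stayed under 1 TPM in all 6 libraries.

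Within mitochondria HSPD1 (HSP60) forms the folding chamber and HSPE1 (HSP10) its lid. HSPE1 measured 294, 222 and 336 TPM in siControl and 203, 149 and 195 TPM in siMAD2L1. The groups did not overlap, although the controls themselves spread widely (mean ± SD of 3 libraries 284 ± 57.9 against 182 ± 29.3 TPM, log2 fold change -0.63, SE 0.171, limma adjusted p = 0.0580). It passed with the replicate number as a block (0.0183), when rescaled without mitochondrially encoded and the 20 highest genes (-0.68, 0.0428), with a filter at 5 TPM (0.0389), without siControl library 2 (-0.80, 0.0482), without siMAD2L1 library 1 (-0.71, 0.0470) and with library weights (-0.60, 0.00857). HSPD1 measured 286, 301 and 318 TPM in siControl and 308, 179 and 207 TPM in siMAD2L1. Library 1 lay among the controls and libraries 2 and 3 far below them (-0.42, SE 0.180, adjusted p = 0.186, and -0.64 with adjusted p = 0.00662 without library 1).

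HSPD1 (chr2:197486581-197516737, minus strand) and HSPE1 (chr2:197499994-197503457, plus strand) lie on opposite strands and overlap in GENCODE, as HSPE1 does with the readthrough gene HSPE1-MOB4, which was listed at 29.2 to 43.7 TPM. The strand setting of the counting is not given, so reads of the overlap cannot be assigned with certainty. The log2 ratio of HSPE1 to HSPD1 was 0.04, -0.44 and 0.08 in siControl and -0.60, -0.26 and -0.08 in siMAD2L1 (exact permutation p = 0.5). It varied as much within the groups as between them.

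The other mitochondrial chaperones did not pass. HSPA9 (mortalin), the HSP70 of the matrix, measured 221, 239 and 223 TPM in siControl and 267, 187 and 217 TPM in siMAD2L1 (log2 fold change -0.04, adjusted p = 0.873). TRAP1, the mitochondrial HSP90, measured 83.8, 96.7 and 93.0 TPM in siControl and 67.1, 77.6 and 88.8 TPM in siMAD2L1 (-0.23, adjusted p = 0.246). DNAJA3, a J-domain partner of HSPA9, measured 31.5, 30.1 and 29.2 TPM in siControl and 25.3, 22.9 and 28.5 TPM in siMAD2L1, with no overlap of the groups (-0.24, adjusted p = 0.209). By limma 0 of these 5 genes passed, against 9.78% of all genes tested, while 2 (HSPD1 and HSPE1) had an unadjusted p under 0.05, against 26.3%.

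**Figure D5:**
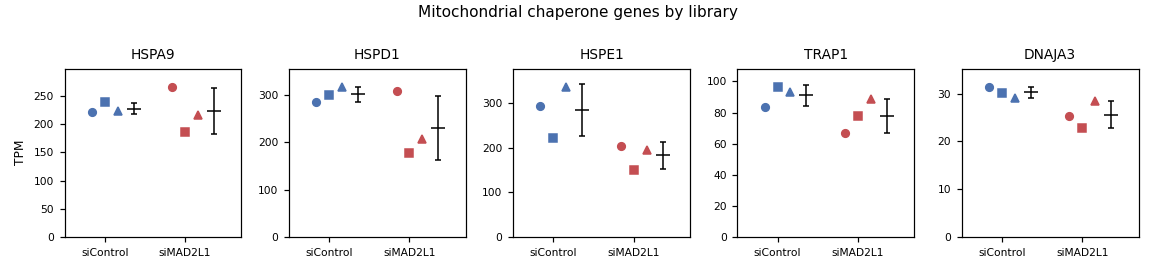
TPM (y axes from 0) of the 5 mitochondrial chaperone genes in siControl (blue) and siMAD2L1 (red), with circles, squares and triangles for libraries 1, 2 and 3 and black bars for the mean ± SD (n = 3). HSPE1 and DNAJA3 lie lower in each siMAD2L1 library, and HSPD1 in libraries 2 and 3.

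The summed TPM of the 5 mitochondrial members was 916, 888 and 999 in siControl and 870, 614 and 736 in siMAD2L1. That of the 30 cytosolic members was 5190, 5217 and 5386 in siControl and 4952, 4459 and 4569 in siMAD2L1. Both sums were lower in each siMAD2L1 library than in any control, as were 21.5% of all genes tested when taken singly. The most abundant members weigh most in these sums, which were not tested. The mitochondrial genes made up 14.5% to 15.7% of the 2 sums in siControl and 12.1% to 14.9% in siMAD2L1, with overlap between the groups.

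Around these members, 98 further chaperone genes were listed by family or compartment, of which 90 were tested. Of these 6 were higher and 5 lower, against 3.55% and 6.23% of all genes tested (median log2 fold change 0.00, against -0.08 over all genes tested). Of 6 prefoldin genes, which hand nascent chains to TRiC, PFDN2 rose from 149 to 201 TPM (0.43, adjusted p = 0.0142) and PFDN6 fell from 92.8 to 68.0 TPM (-0.45, adjusted p = 0.0406). Of 4 genes for other helpers of TRiC 0 passed by limma, and 0 had an unadjusted p under 0.05, the most abundant being PDCD5 (129 and 154 TPM) and TXNDC9 (40.7 and 40.9 TPM). Of 18 further co-chaperones of HSP90 and HSP70, FKBP5, an immunophilin that restrains the glucocorticoid receptor, fell from 11.6 to 6.07 TPM (-0.83, adjusted p = 0.0124).

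Of 22 further HSP70 and J-domain genes, DNAJB2 rose beside HSPA6 (0.38, adjusted p = 0.0457). HSPA14, a ribosome-bound HSP70, fell from 20.6 to 12.8 TPM (-0.64, adjusted p = 0.0202). Of 18 genes of mitochondrial protein quality control, GRPEL1, the exchange factor of HSPA9, rose from 61.8 to 83.9 TPM (0.44, adjusted p = 0.0163), and DNAJC11 fell (-0.39, adjusted p = 0.0475). Of 18 chaperones of the endoplasmic reticulum, DNAJB9 rose from 15.9 to 33.7 TPM (1.02, adjusted p = 0.0132) and the disulfide isomerase P4HB from 1229 to 1591 TPM (0.37, adjusted p = 0.0172), while PDIA4 fell from 172 to 130 TPM (-0.41, adjusted p = 0.0152). Of 4 tested small heat shock genes and relatives of HSF, 0 passed by limma. An unadjusted p under 0.05 was found at 1, HSF4 (6.53 and 10.0 TPM, 0.55, limma adjusted p = 0.0660), whose groups did not overlap. The most abundant were HSBP1 (82.0 and 112 TPM) and HSPB11 (48.8 and 46.0 TPM). Each of these 11 calls ended in at least 1 of the 6 fits with a library left out, all 11 of them without siControl library 1. Those of PFDN6 and DNAJC11 also ended with upper-quartile scaling (adjusted p = 0.0934 and 0.101), quantile normalization (0.0551 and 0.0983) and the replicate block (0.0852 and 0.0866). That of DNAJB2 ended with quantile normalization (0.0530) and when rescaled without mitochondrially encoded and the 20 highest genes (0.0632). For P4HB quantile normalization gave 0.22 (adjusted p = 0.106).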

How the data were processed

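RNA sequencing values of 6 libraries were used. Per the submitters' processing notes, fastp, HISAT2, DESeq2 1.16.1 and the build hg38 were used, with roles not given. For the counter, annotation and strand setting, the answer is not given in the sources used here. The authors deposited TPM, 1 column per library, scaled to the same total. Groups come from the titles. The columns named NC and MAD were matched to siControl and siMAD2L1 by name and number. The 14790 genes averaging at least 1 TPM were kept, put on the log2(TPM + 1) scale and fitted by limma 3.58.1 in R 4.3.3 with an intensity trend and no covariates, with Benjamini-Hochberg adjustment over all genes tested. The fit was tested on simulated data with independent noise of equal size in both groups. That simulation held no library set apart across genes, so it cannot speak to the split of siMAD2L1 library 1. Fold changes on this scale understate those of low genes. Single ratios were compared by exact two-sided permutation. Positions, lengths and shared windows come from GENCODE 29 (GRCh38), promoters from RefSeq (GRCh38.p14). No protein sequences were used. The members and lists were chosen with earlier results of these data known. Named genes are MAD2L1, MAD2L2, the 37 members and, of each further list, up to 4 called genes by size of change (without calls, its 2 most abundant). HSF4 was named outside this rule, and marker genes are named by level. Alternatives are listed with their effects in the closing section.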

Additional observations from a re-analysis of the deposited data

How the results depend on the processing

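The number of called genes varied with the libraries kept and with the variance model. A fit with 1 library left out also rests on fewer libraries, which by itself can end a call. Against 1446 called genes, 1 member higher and 2 lower, the counts were 727, 0 and 0 without a filter on low values, 952, 0 and 0 by limma without a trend, 4860, 4 and 12 with library weights and 359, 0 and 0 at an adjusted p of 0.01. Lower members numbered 4 with a filter at 5 TPM, 1 with upper-quartile scaling, 4 without mitochondrially encoded and the 20 highest genes (0 higher) and 1 with the transcript-length trend removed. In the same order, 15.4%, 9.22%, 11.4% and 9.61% of all genes tested were called higher or lower, against 9.78% in the main fit. With 1 library left out the counts ranged from 326 to 2422 genes, from 0 to 2 higher members and from 0 to 11 lower members, the highest of each without siMAD2L1 library 1, the lowest count of genes without siControl library 1. A replicate block gave 868 genes, 0 higher members and 2 lower (CCT6A and HSPE1). The deviations of same-numbered libraries correlated by 0.0190, 0.00898 and 0.0631 over genes, and those of unlike number by -0.0525 to 0.0336. With so few libraries these values cannot show whether same-numbered libraries were paired, and the labels do not say. The median over all genes was -0.08, and -0.04, -0.00294, -0.13 and 0.00449 with upper-quartile scaling, with quantile normalization, without mitochondrially encoded and the 20 highest genes, and with the length trend removed, so members with a smaller change have no fixed sign.

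Signs turned at members that were not called. With siMAD2L1 library 1 alone the log2 fold change was 0.36 for HSP90AA1, 0.53 for HSPH1, 0.30 for HSPA4, 0.28 for DNAJA1, 0.23 for HSPA9, 0.84 for CHORDC1, 0.0893 for TCP1, 0.0846 for CCT2, 0.0310 for CCT8, 0.0317 for HSPD1, 0.0517 for BAG2, 0.0152 for HSPA4L, 0.0193 for HSPA8 and -0.00303 for HSF1. With upper-quartile scaling it was 0.00742 for CHORDC1, 0.00536 for STIP1, 0.00989 for HSPA9 and 0.0197 for TCP1, and with quantile normalization 0.0779 for CHORDC1. With the length trend removed it was 0.0534 for TCP1, 0.0270 for MAD2L2, 0.0155 for CHORDC1, 0.0148 for HSPA9, 1.16e-05 for BAG3 and 0.0419 for STIP1. With library weights it was -0.0760 for HSF2, -0.0217 for CRYAB and -0.20 for DNAJB4. Leaving out 1 library gave -0.15 to 0.0121 for MAD2L2, -0.0684 to 0.24 for HSF2, -0.42 to 0.00126 for HSPA4, -0.41 to 0.11 for HSPH1, -0.00734 to 0.14 for DNAJA2, -0.0928 to 0.43 for DNAJB4, -0.47 to 0.20 for CHORDC1, -0.0901 to 0.00752 for TCP1 and -0.18 to 0.0804 for HSPA9. The causes were not tested, and TPM carry no read depth, so the counting error of low genes such as CHORDC1 and HSF2 is unknown.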
